A study of Homo sapiens with 3 samples.

Results

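The Snail, ZEB and partner genes comprised 10 transcription factor genes that are known to drive the epithelial-mesenchymal transition (EMT), namely SNAI1, SNAI2, SNAI3, ZEB1, ZEB2, TWIST1, TWIST2, PRRX1, TCF3 and TCF4. Their regions were all rows of the deposited region table whose gene list names a member, 37 of 67965 regions on chromosomes 1 to 22 and X. The regions belonged to 7 genes. SNAI1 had 3, SNAI2 had 1, SNAI3 had 6, ZEB1 had 12, TWIST2 had 6, PRRX1 had 2 and TCF3 had 7. No region was assigned to ZEB2, TWIST1 or TCF4. Membership was by gene name.

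The cells were MDA-MB-231 LM2, clones of a triple-negative breast cancer line selected for metastasis to the lung. The deposited column names also carry a tag for a GFP hairpin, which no label explains. Chromatin immunoprecipitation and sequencing (ChIP-seq) was done with 1 antibody against both H3.1 and H3.2, histone H3 forms laid down mainly while DNA replicates, and 1 against H3.3, the replacement form that is laid down at any time. The series holds 1 H3.1/H3.2 ChIP (30 µg of chromatin, 4 µg of antibody), 1 H3.3 ChIP (30 µg and 6 µg) and 1 input (not analysed here). Each antibody thus has a single library, so nothing checks the spread between replicates and no test or p-value is given.

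EMT repressors switch off epithelial genes. The zinc fingers of Snail and ZEB proteins bind the E-box CAGGTG or CACCTG in promoters such as that of E-cadherin and recruit co-repressors there. TWIST proteins bind E-boxes as pairs with E-proteins such as those of TCF3 and TCF4, and PRRX1 is a homeobox factor of mesenchymal cells. In breast cancer cells these factors are known for promoting motility and invasion.

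The signal is a pileup height, the number of extended reads stacked over a base, given as a mean over the region and as its highest value (peak). Folds are the H3.3 over the H3.1/H3.2 mean height, with an exact conditional 95% interval on the estimated reads (tags) behind them, 4 to 1120 per library and region. The intervals cover counting error only. A region leaned to a variant where the fold was at least 1.5 or at most its inverse. The sign of every balance holds relative to how the libraries were scaled, which the sources used here do not state. A height sums over all cells and gene copies of the culture, so a share of cells and a level per cell cannot be told apart. An estimated 5897938 tags of H3.1/H3.2 and 7332517 of H3.3 fell in all regions.

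**Figure D1:**
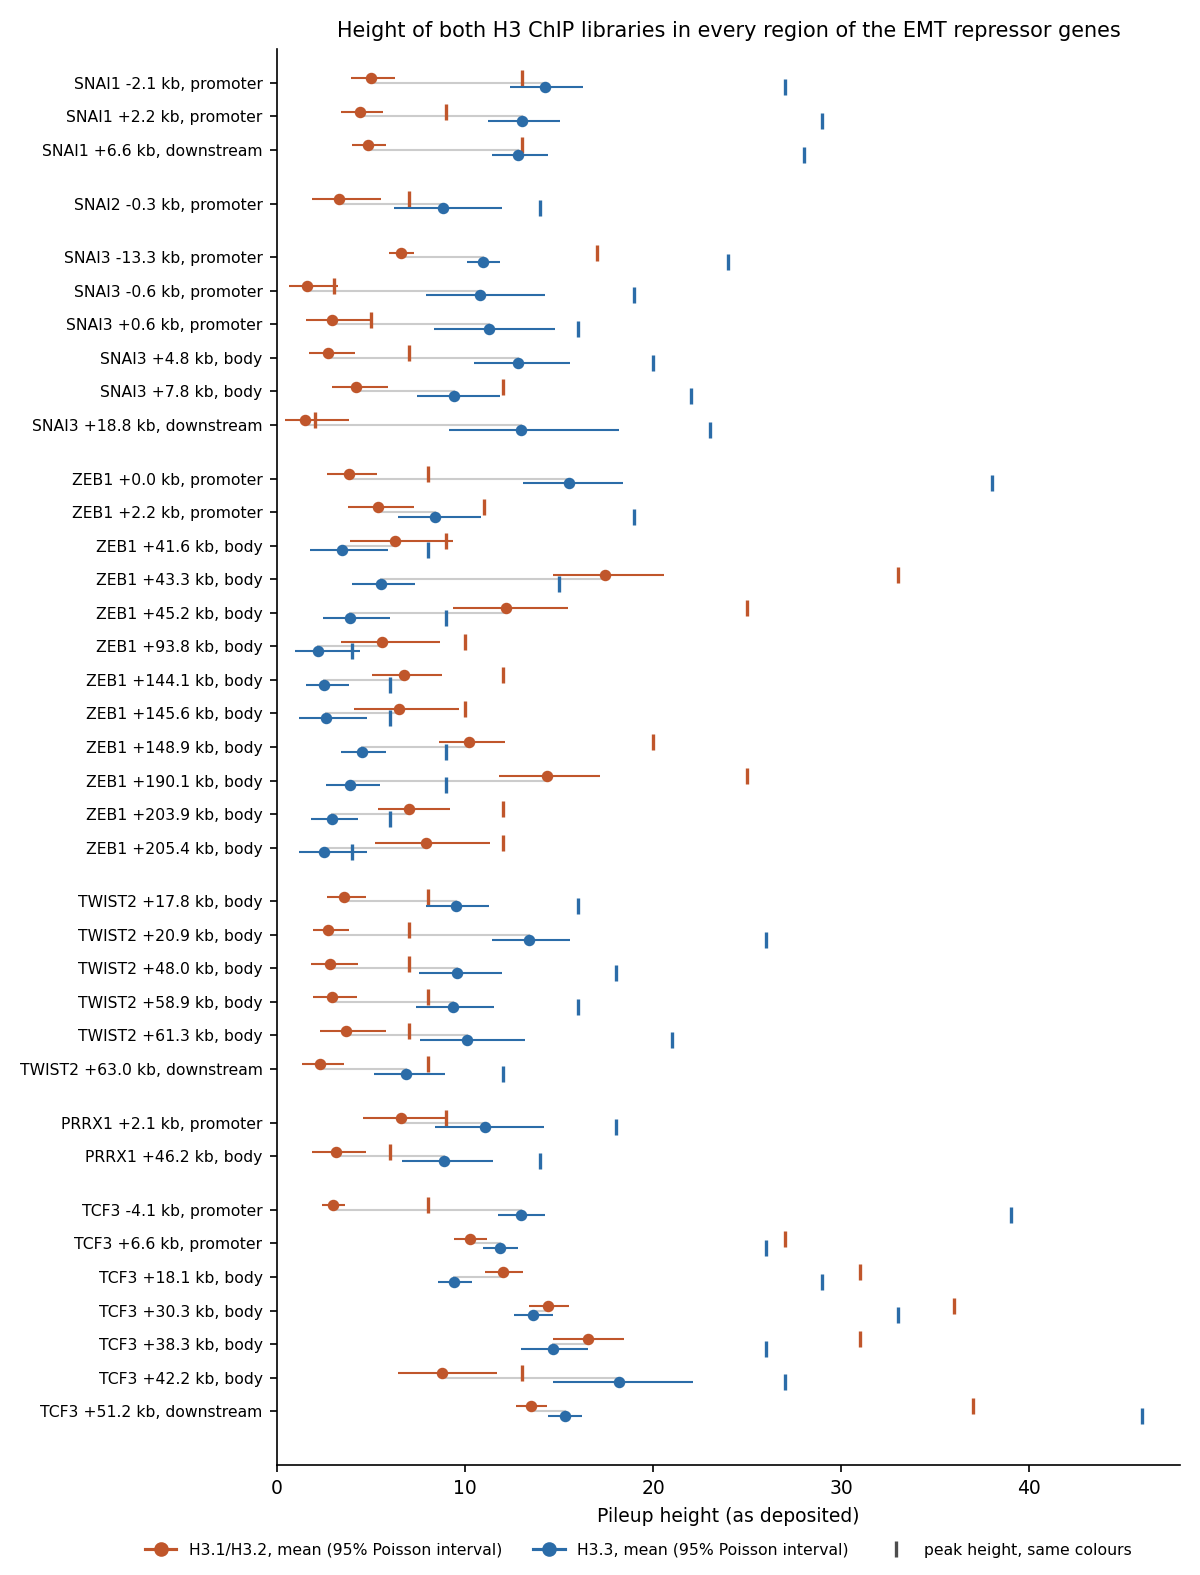
Mean pileup height (dots, bars are 95% Poisson intervals) and peak height (ticks) of H3.1/H3.2 (orange) and H3.3 (blue) in each of the 37 regions, labelled by gene, distance of the region's centre from the gene's start and kind of region. H3.3 stands to the right in all regions of SNAI1, SNAI2, SNAI3, TWIST2 and PRRX1, and H3.1/H3.2 in the 10 gene body regions of ZEB1.

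The first comparison was between both kinds of H3 at the members' promoters. A promoter region overlaps the window from 7500 bases upstream to 2500 bases downstream of the gene's start. There were 11 such regions in 6 genes, and 10 of them leaned to H3.3, against 58.8% of all 23466 promoter regions. The remaining one, in TCF3, leaned to neither variant. The fold interval lay above 1 in 11 of 11, against 60.1% of all promoter regions. The authors had called 9 in H3.3 alone and 2 in both ChIPs, against 56.5% and 23.6% of all, and none in H3.1/H3.2 alone, against 19.9%. Each of the 11 thus carried an H3.3 call, and the counts of leans and of intervals are not independent of these calls. A CpG island lay in 9 of the 11, against 50.8% of all. Regions of 1 gene are neighbours and not replicates, so these counts rest on 6 loci.

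SNAI1, the repressor of E-cadherin best known from EMT, carried 3 regions of nearly equal balance along its short gene on chromosome 20. The upstream region (49979200 to 49982599, centre 2077 bases upstream of the start, with a CpG island) had an H3.1/H3.2 mean height of 4.98, an H3.3 mean height of 14.2 and peaks of 13 and 27. The region in the gene (49983600 to 49986799, centre 2223 bases downstream) had means of 4.43 and 13.0 and peaks of 9 and 29. The region over the gene's end (49987000 to 49992199, centre at 6623 bases, past the end) had means of 4.81 and 12.8 and peaks of 13 and 28. H3.3 was the higher in each, and the folds of 2.86 (2.18 to 3.74), 2.94 (2.21 to 3.99) and 2.67 (2.13 to 3.34) had overlapping intervals. The start itself lay in a gap between regions, 377.5 bases from the upstream and 623.5 bases from the downstream one. A start inside a region was found for 60.4% of 17529 genes with a promoter region, and among the 6 members for ZEB1 and SNAI2.

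SNAI2, which encodes the repressor Slug, had 1 short region of 999 bases that covered its start on chromosome 8 (48921200 to 48922199, centre 259 bases upstream). H3.1/H3.2 stood at a mean height of 3.29 and H3.3 at 8.81, with peaks of 7 and 14, from 15 and 39 tags. The fold was 2.68 (1.40 to 5.08), and no CpG island was marked. The next regions lay 12.4 kb from the gene on one side and 2474 kb on the other.

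SNAI3, the least studied Snail gene, had 6 regions on chromosome 16, and H3.3 was the higher in each. Just upstream of the start (88686600 to 88687599, centre at 625 bases) H3.1/H3.2 had a mean of 1.62 and H3.3 of 10.8, and the peaks were 3 and 19. The fold there was 6.69 (3.08 to 18.0) from 7 and 48 tags, a value that 1.19% of promoter regions reached. Just downstream of the start (88685400 to 88686399, centre at 575 bases) the means were 2.90 and 11.3 and the peaks 5 and 16, a fold of 3.89 (2.06 to 7.72). The start lay between both, 75.5 and 125.5 bases from their edges. The third promoter region is 12399 bases long, reaches the window by its edge and spans the neighbour RNF166. It had means of 6.60 and 10.9, peaks of 17 and 24 and the lowest fold of the gene, 1.66 (1.45 to 1.89).

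Inside SNAI3 the balance stayed with H3.3. The gene body region at 4775 bases had means of 2.73 and 12.8 and peaks of 7 and 20, a fold of 4.68 (2.93 to 7.79) that 2.66% of gene body regions reached. The region at 7775 bases had means of 4.20 and 9.43 and peaks of 12 and 22, a fold of 2.24 (1.47 to 3.46). The region downstream of the gene, at 18775 bases, had means of 1.46 and 12.9 and peaks of 2 and 23. Its fold of 8.85 (3.13 to 33.9) rests on 4 and 35 tags, and it is also assigned to MVD. All 6 regions are assigned to the antisense gene SNAI3-AS1 too, and histone ChIP cannot tell both strands apart.

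ZEB1, the zinc finger homeobox repressor that opposes the miR-200 family, changed balance along its gene on chromosome 10. At the start (31317800 to 31319799, centre 16 bases downstream) H3.1/H3.2 had a mean height of 3.82 and H3.3 of 15.5, and the peaks were 8 and 38. The fold was 4.07 (2.79 to 6.14), and 7.67% of promoter regions had an H3.3 mean as high. The region next to it (31320200 to 31321799, centre at 2216 bases) had means of 5.34 and 8.42 and peaks of 11 and 19, a fold of 1.58 (1.03 to 2.44). Both also hold ZEB1-AS1 and LOC101929946 in their gene lists. The intervals of these folds did not overlap, so the H3.3 excess was larger at the start than in the region next to it.

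RefSeq lists 7 starts of ZEB1 in these regions, 4 of them in the start region. The first promoter and the third are shown since the start region covers both whole and they hold the E-box that ZEB and Snail proteins bind. Each runs from 250 bases before to 50 after its start, from RefSeq on GRCh38.p14, plus strand, with CAGGTG or CACCTG in capitals. CACCTG is CAGGTG read on the other strand, and either is a case of CANNTG.
ZEB1, chr10:31318167-31318466: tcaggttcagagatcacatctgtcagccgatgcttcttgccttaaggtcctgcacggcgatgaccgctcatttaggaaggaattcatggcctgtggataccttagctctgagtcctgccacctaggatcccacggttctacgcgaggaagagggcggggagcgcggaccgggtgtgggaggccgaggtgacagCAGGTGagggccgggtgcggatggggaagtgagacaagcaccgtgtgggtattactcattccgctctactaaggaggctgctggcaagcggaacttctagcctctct
ZEB1, chr10:31318966-31319265: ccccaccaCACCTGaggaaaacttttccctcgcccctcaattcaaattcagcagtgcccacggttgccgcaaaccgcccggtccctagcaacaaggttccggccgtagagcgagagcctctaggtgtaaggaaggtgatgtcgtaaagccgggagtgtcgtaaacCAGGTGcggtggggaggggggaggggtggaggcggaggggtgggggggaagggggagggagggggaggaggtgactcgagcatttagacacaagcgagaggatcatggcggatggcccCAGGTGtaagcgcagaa
The first holds 1 such E-box, 57 bases upstream of its start, and the third holds 3, at 242 and 85 bases upstream and 33 bases downstream. At least 1 stood in 20.6% of 35116 RefSeq promoters of the same length, and at least 3 in 0.635%. The other 5 ZEB1 promoters held none. Both printed promoters were picked for holding the E-box, so these shares only describe how common it is. CpG dinucleotides numbered 17 in each printed promoter, against a median of 14, and CACGTG was absent from both. A match of letters is no evidence of binding.

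The 10 gene body regions of ZEB1 all leaned to H3.1/H3.2, against 46.1% of all 44823 gene body regions. They lay 41616 to 205416 bases into the gene, and the authors had called each in H3.1/H3.2 alone. Their H3.1/H3.2 means ran from 5.56 to 17.4 with a median of 7.48, and their H3.3 means from 2.19 to 5.52 with a median of 3.18. The H3.3 means in the body were all below both H3.3 means at the promoter. The authors had called both promoter regions in H3.3 alone, so this separation is not independent of the calls. How often other genes part in this way was not tested. Folds ran from 0.269 (0.175 to 0.404) at 190116 bases to 0.550 (0.246 to 1.15) at 41616 bases, and the interval lay below 1 in 9 of the 10. The tags of all 10 regions together, 661 of H3.1/H3.2 and 237 of H3.3, gave 0.359 (0.308 to 0.417).

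Within the body of ZEB1 the H3.1/H3.2 height was uneven. The region at 43316 bases (31361200 to 31362999) had a mean of 17.4 (14.7 to 20.6) and a peak of 33, and 0.207% of gene body regions had a mean as high. H3.3 stood there at a mean of 5.52 and a peak of 15. The region at 45216 bases had H3.1/H3.2 and H3.3 means of 12.2 and 3.89 and peaks of 25 and 9, and the one at 190116 bases had means of 14.3 and 3.86 and peaks of 25 and 9. The regions at 41616, 43316 and 45216 bases also hold LOC100505502 in their gene lists. Those at 43316 and 45216 bases each hold 1 marked promoter, and both lie outside the promoter window of ZEB1. At 148916 bases the means were 10.2 and 4.52 and the peaks 20 and 9. The other 6 regions were lower, with H3.1/H3.2 means of 5.56 to 7.92, H3.3 means of 2.19 to 3.46 and peaks of 9 to 12 and 4 to 8.

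The promoter of ZEB1 exceeded the median of its body by 2.88 on the log2 scale (1.78 against -1.10), a difference that 2.32% of 8111 genes with both kinds of region reached. The median over those genes was 0.50. The other promoter region of ZEB1 had a log2 ratio of 0.57, so the size of the ZEB1 difference depends on which region is taken. Of 1244 genes with 10 or more gene body regions, 138 (11.1%) had all of them leaning to H3.1/H3.2. Regions covered 8.32% of the 211388 bases of ZEB1, so most of the gene was called in neither ChIP.

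**Figure D2:**
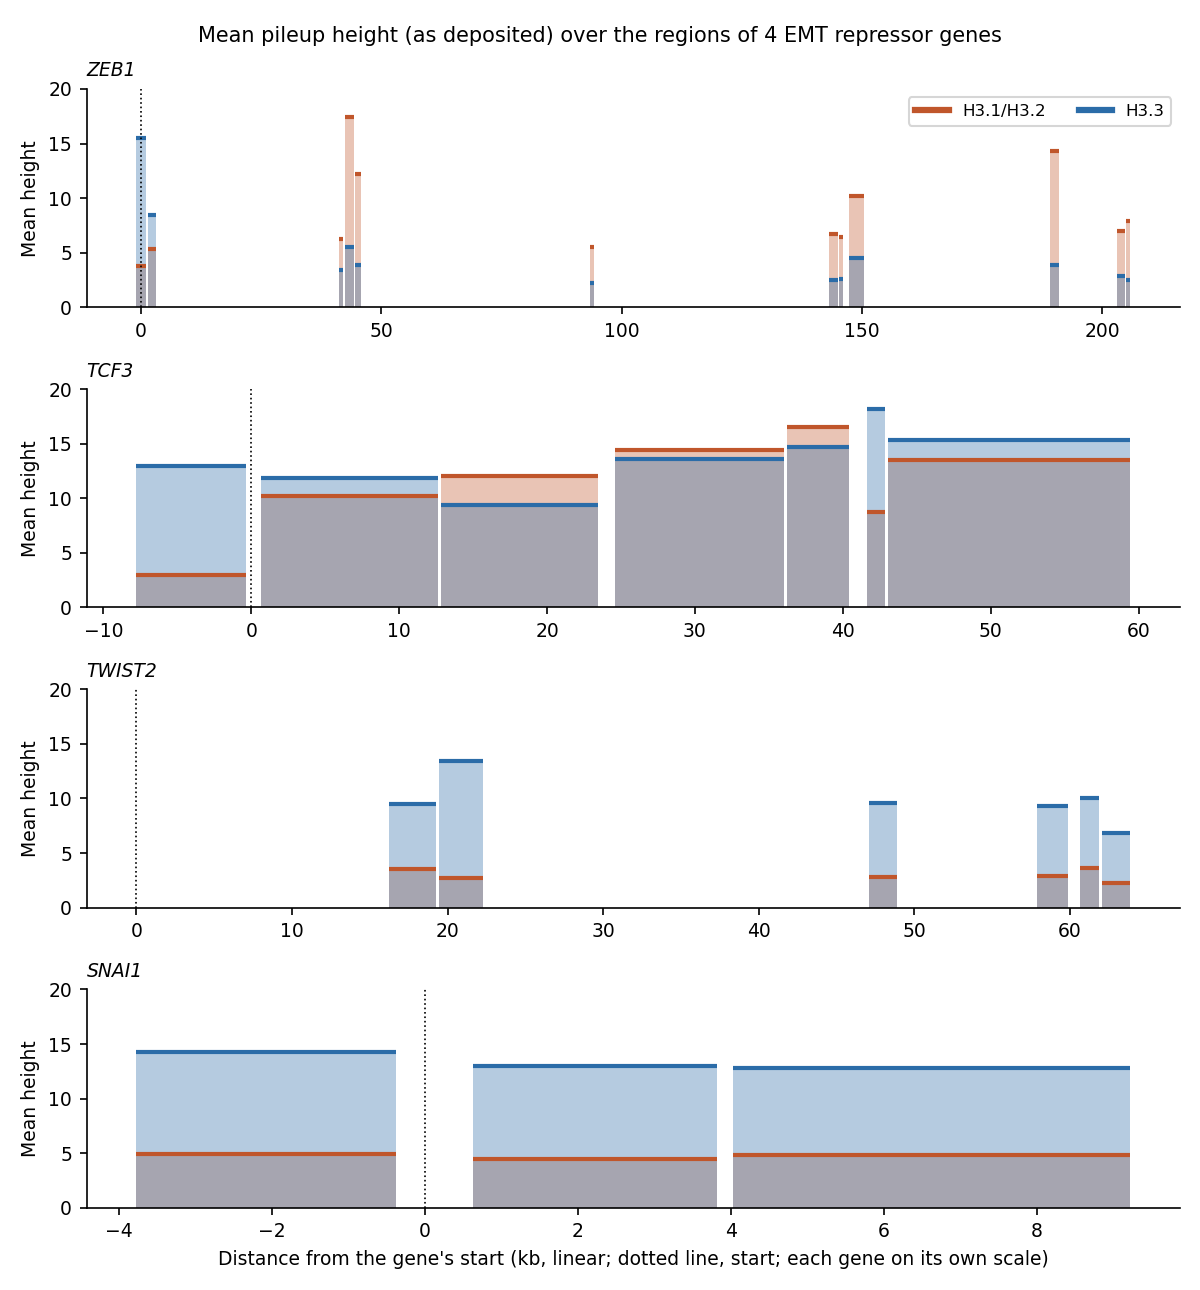
Mean pileup height of H3.1/H3.2 (orange) and H3.3 (blue) over the regions of ZEB1, TCF3, TWIST2 and SNAI1, against distance from the gene's start in kb (dotted line). ZEB1 changes from H3.3 at the start to H3.1/H3.2 in the body, TCF3 from H3.3 upstream to near balance inside the gene, and TWIST2 and SNAI1 stay with H3.3 throughout.

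ZEB2, the second ZEB repressor, had no region over its 136039 bases on chromosome 2, and the nearest lay 300.3 kb away. For TWIST1 on chromosome 7 the nearest lay 153.8 kb away, and for TCF4 on chromosome 18, with 413773 bases, 393.6 kb away. The region numbers run without a gap. Of 19974 protein-coding genes of RefSeq 34.7% had no region over them, and 9.99% had none within 150 kb either. A gene without a region was called in neither ChIP, which does not show that either histone is absent there.

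TWIST2, a basic helix-loop-helix repressor of mesenchymal cells, had no promoter region, and its first region began 16265.5 bases past the start on chromosome 2. In all 5 gene body regions H3.3 was the higher and the authors had called H3.3 alone, against 34.0% of gene body regions. A lean to H3.3 was found in 32.3% of all gene body regions, and of 3211 genes with 5 or more such regions 281 (8.75%) had it in each. At 17765 bases H3.1/H3.2 had a mean of 3.55 and H3.3 of 9.49, and the peaks were 8 and 16. At 20865 bases (238867400 to 238870199) they were 2.71 and 13.4 with peaks of 7 and 26, the highest fold of the gene at 4.94 (3.38 to 7.33). The regions at 47965, 58865 and 61265 bases were much alike, with H3.1/H3.2 means of 2.84, 2.94 and 3.66 and H3.3 means of 9.55, 9.36 and 10.1. Their peaks were 7, 8 and 7 (H3.1/H3.2) and 18, 16 and 21 (H3.3). The region over the gene's end, at 62965 bases, had means of 2.27 and 6.88 and peaks of 8 and 12.

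The 5 TWIST2 body regions held 151 tags of H3.1/H3.2 and 508 of H3.3 together, a fold of 3.36 (2.80 to 4.06). That interval did not overlap the 0.308 to 0.417 of the ZEB1 body. H3.1/H3.2 means did not overlap between both sets, at 2.71 to 3.66 in TWIST2 and 5.56 to 17.4 in ZEB1. Nor did H3.3 means, at 9.36 to 13.4 in TWIST2 and 2.19 to 5.52 in ZEB1. The authors had called the TWIST2 regions in H3.3 alone and the ZEB1 regions in H3.1/H3.2 alone. The separation of heights is thus not independent of those calls. Regions of the same gene are neighbours and not replicates, and how often other genes part like this was not tested. No CpG island lay in any of these 15 regions. The RefSeq promoter of TWIST2, which no region overlaps, is shown beside the ZEB1 promoters as one rich in CpG but without a call, with 29 CpG and 66.7% G and C against a median of 58.7% over all promoters. It held no CAGGTG or CACCTG, so no letter is in capitals.
TWIST2, chr2:238847835-238848134, plus strand: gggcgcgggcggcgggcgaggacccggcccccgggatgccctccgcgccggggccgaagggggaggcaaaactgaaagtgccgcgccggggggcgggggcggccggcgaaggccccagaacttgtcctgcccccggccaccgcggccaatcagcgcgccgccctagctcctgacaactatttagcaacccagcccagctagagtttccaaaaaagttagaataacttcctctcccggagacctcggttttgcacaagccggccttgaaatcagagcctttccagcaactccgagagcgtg

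PRRX1, the homeobox factor, had a promoter region 2071 bases into the gene on chromosome 1 (170664200 to 170665399), with an H3.1/H3.2 mean of 6.57, an H3.3 mean of 11.1, peaks of 9 and 18 and a CpG island. The fold of 1.68 (1.09 to 2.64) was the lowest among the promoter regions nearest the members' starts. The gene body region at 46171 bases had means of 3.12 and 8.86, peaks of 6 and 14 and a fold of 2.84 (1.69 to 5.17). Both leaned to H3.3, and with 35 and 59 against 19 and 55 tags their intervals overlapped. PRRX1 was the member with both kinds of region in which the body median exceeded the promoter value, by log2 ratios of 1.26 against 0.67. Across genes the promoter was the higher in 71.5%.

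TCF3, which encodes the E-protein partners E12 and E47, had the highest median of both variants over its gene body regions among the 5 members with such regions. Upstream of the start on chromosome 19 (1652800 to 1660199, centre at 4073 bases) H3.1/H3.2 had a mean of 2.95 and H3.3 of 13.0, and the peaks were 8 and 39, a fold of 4.39 (3.50 to 5.50). On the other side of the start (1639800 to 1651799, 11999 bases long, centre at 6627 bases) they were 10.2 and 11.8 with peaks of 27 and 26, a fold of 1.16 (1.03 to 1.30). H3.1/H3.2 was lower upstream (interval 2.41 to 3.62) than downstream (9.41 to 11.1), while the H3.3 intervals of 11.8 to 14.2 and 10.9 to 12.8 overlapped. By the authors' distances the start lay in a gap, 373.5 bases from the upstream and 627.5 bases from the downstream region. RefSeq places the start elsewhere in this gap, 185 bases from the upstream region. The promoter of the RefSeq start, like that of TWIST2 chosen after the values were seen, is shown as sequence from that gap. All but 66 of its 300 bases lie outside any region. It held 43 CpG, 78.3% G and C and no CAGGTG or CACCTG.
TCF3, chr19:1652566-1652865, minus strand: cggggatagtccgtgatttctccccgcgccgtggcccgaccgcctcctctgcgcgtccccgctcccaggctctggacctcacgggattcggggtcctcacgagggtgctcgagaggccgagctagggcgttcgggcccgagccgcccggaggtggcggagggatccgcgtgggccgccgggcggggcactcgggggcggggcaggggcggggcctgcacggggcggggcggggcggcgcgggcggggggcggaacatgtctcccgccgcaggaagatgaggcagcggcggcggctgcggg

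Further into TCF3 both variants were high and near balance. At 18127 bases H3.1/H3.2 had a mean of 12.0 and H3.3 of 9.42, with peaks of 31 and 29, and the fold of 0.783 (0.691 to 0.889) lay below 1. At 30327 bases they were 14.4 and 13.6 with peaks of 36 and 33, and at 38327 bases 16.5 and 14.7 with peaks of 31 and 26, and both intervals, 0.850 to 1.05 and 0.754 to 1.05, included 1. The short region at 42227 bases (1609600 to 1610799) stood apart with means of 8.76 and 18.2 and peaks of 13 and 27, a fold of 2.08 (1.44 to 2.99). An H3.3 mean as high was found in 0.788% of gene body regions. The regions at 38327 and 42227 bases are also assigned to the neighbour UQCR11. Each holds 1 marked promoter, and both lie outside the promoter window of TCF3. The region that starts at the gene's end and is also assigned to its neighbours UQCR11 and MBD3 had means of 13.5 and 15.3, peaks of 37 and 46 and a fold of 1.13 (1.04 to 1.23).

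TCF3 was covered by regions over 91.2% of its 43324 bases, and at least 90% was covered in 16.1% of 13034 protein-coding genes with a region. The H3.1/H3.2 means of 14.4 and 16.5 were reached by 0.993% and 0.337% of gene body regions, and the second region is shared with UQCR11. The upstream promoter region, whose centre is nearer the start, exceeded the body median by 1.94 on the log2 scale (1.82 against -0.12), and 13.9% of genes reached this. The promoter region downstream of the start had a log2 ratio of 0.19, so the size of the TCF3 difference depends on which region is taken. In SNAI3 the difference at the promoter region nearest the start was 0.21 (1.65 against 1.44).

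**Figure D3:**
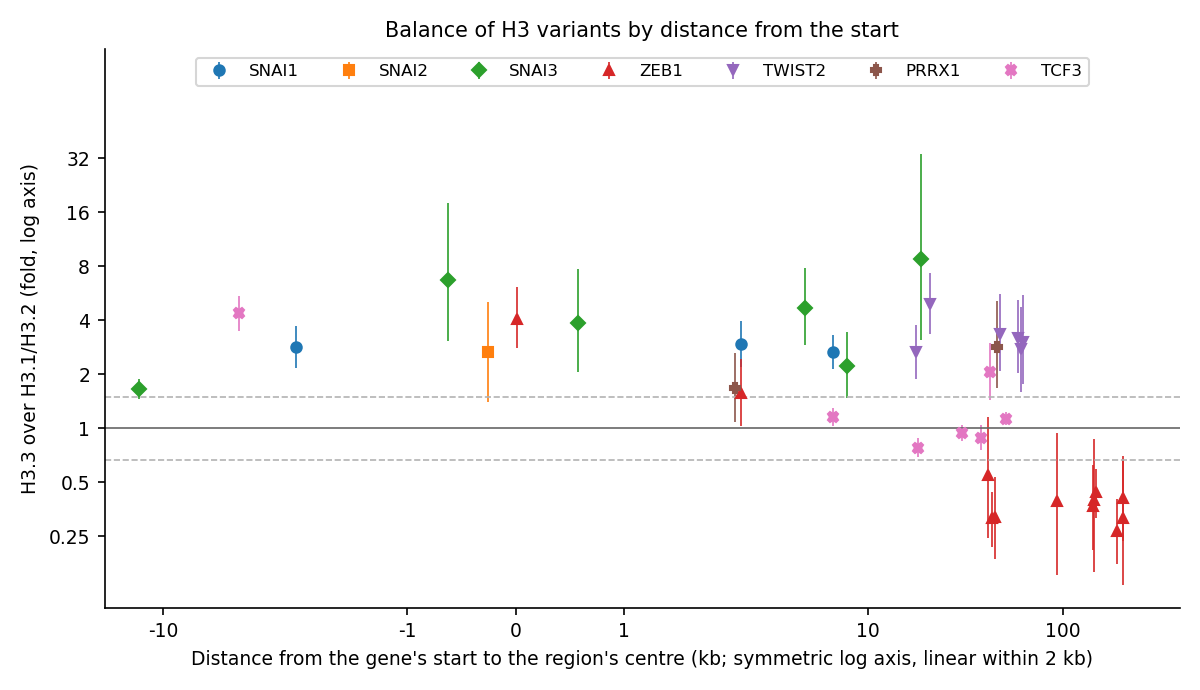
H3.3-to-H3.1/H3.2 fold (log axis, bars are exact conditional 95% intervals) against the distance of the region's centre from the gene's start (symmetric log axis) for the 37 regions, with dashed lines at 1.5 and its inverse. Each region centred within 2223 bases of the start leans to H3.3, and far downstream the members part, with TWIST2 at 2.68 to 4.94, TCF3 at 0.783 to 2.08 inside the gene and ZEB1 at 0.269 to 0.550.

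Set side by side at the promoter region nearest each start, the H3.3 mean heights ran from ZEB1 at 15.5 (13.1 to 18.4) over SNAI1 at 14.2 (12.4 to 16.3), TCF3 at 13.0 (11.8 to 14.2), SNAI3 at 11.3 (8.32 to 14.8) and PRRX1 at 11.1 (8.39 to 14.2) to SNAI2 at 8.81 (6.22 to 12.0). The intervals of neighbours in this order overlapped, and the intervals of ZEB1 and SNAI1 lay above that of SNAI2. The H3.1/H3.2 means ran in another order, from PRRX1 at 6.57 (4.55 to 9.09) and SNAI1 at 4.98 (3.95 to 6.27) down to SNAI3 at 2.90 (1.55 to 4.98). The median over all promoter regions was an H3.3 height of 9.37 and an H3.1/H3.2 height of 5.81. SNAI2 was thus below the H3.3 median, and PRRX1 was the 1 of the 6 above the H3.1/H3.2 median.

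The promoters also differed in the shape of the signal. The H3.3 peak was 3.01 times the mean upstream of TCF3 and 2.44 times at the ZEB1 start, against a median of 1.97 over all regions, and 1.42 times just downstream of the SNAI3 start. Peaks of 39 and 38 were reached by 5.54% and 6.28% of promoter regions. By peak heights the folds were 4.88 in TCF3, 4.75 in ZEB1, 3.2 in SNAI3, 2.08 in SNAI1 and 2.00 in both SNAI2 and PRRX1. The TCF3 region is 7399 bases long and the ZEB1 region 1999.

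Over all 22 gene body regions 9 leaned to H3.3 and 10 to H3.1/H3.2, against 32.3% and 46.1% of all gene body regions, and 3, all in TCF3, leaned to neither. The interval lay above 1 in 9 (32.4% of all) and below 1 in 10 (44% of all). The authors had called 10 in H3.1/H3.2 alone (50.6% of all), and 4 held a CpG island (9.75% of all). The median log2 ratio, with a pseudocount of 1, was -0.24 over these 22 and -0.40 over all gene body regions. It was 1.35 over the 11 promoter regions and 0.78 over all promoter regions. The body count splits by gene, since all 10 leaning to H3.1/H3.2 lie in ZEB1 and 5 of the 9 leaning to H3.3 in TWIST2. Without the ZEB1 regions the body median was 1.23, and without those of TWIST2 it was -1.02 and 4 regions leaned to H3.3. Both values were added after the data were seen.

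**Figure D4:**
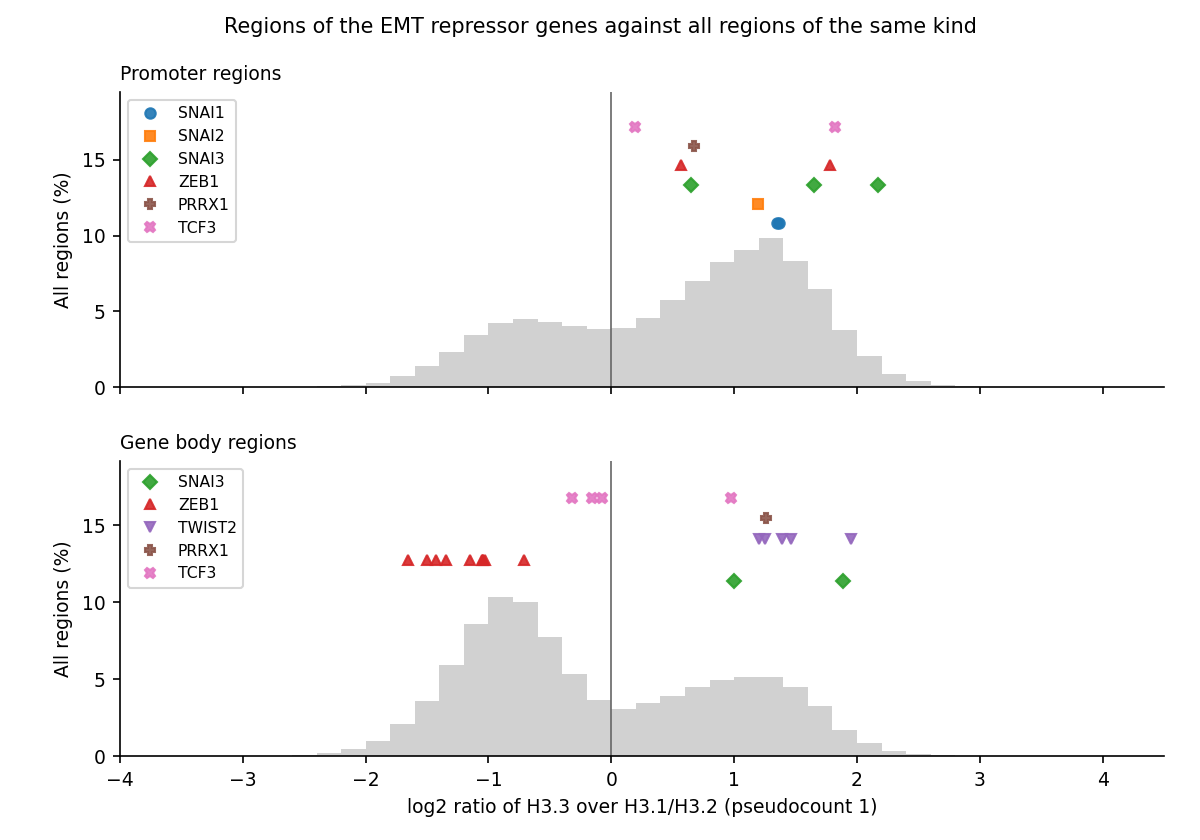
Share of all promoter regions (top) and all gene body regions (bottom) by log2 H3.3-to-H3.1/H3.2 ratio in steps of 0.2 (grey bars), with the members' regions as symbols above them, a row per gene whose height has no meaning. The 11 promoter regions lie on the H3.3 side of 0, and the gene body regions of ZEB1 and TWIST2 lie in the left and the right of the 2 humps of all gene body regions.

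The next comparison placed the repressors beside the genes they work with, at the promoter region nearest each start. A lean to H3.3 was found in 64.6% of all 17529 genes and a lean to H3.1/H3.2 in 12.0%, with a median log2 ratio of 0.91. All 6 members with a promoter region leaned to H3.3. Of the co-repressors and chromatin partners 11 of 12 genes had a promoter region, of which 6 leaned to H3.3, 1 to H3.1/H3.2 and 4 to neither, with a median of 0.80. EZH2, the Polycomb methyltransferase, was at 4.15-fold (2.70 to 6.45) and the deacetylase HDAC1 at 3.47-fold (1.84 to 6.99). The HDAC1 region, with 13 and 45 tags, was centred 1508 bases upstream, did not cover the start and is also assigned to LCK. The Polycomb subunit SUZ12 was at 0.302-fold (0.125 to 0.732), 2774 bases into the gene, and the deacetylase HDAC2 at 0.771-fold (0.449 to 1.31). The demethylase gene KDM1A had no promoter region.

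All 5 genes of E-proteins and their ID inhibitors leaned to H3.3, against 64.6% of all genes, with a median log2 ratio of 1.51. ID proteins lack a basic region and keep E-proteins from DNA. ID4 was at 9.82-fold (3.13 to 33.9, from 4 and 35 tags) and ID2 at 4.58-fold (2.12 to 13.0). The E-protein gene TCF12 at 2.20-fold (1.52 to 3.29) and ID3 at 3.38-fold (2.44 to 4.70) were the lowest by log2 ratio. ID1, in a region shared with LOC105372588 and MIR3193, was at 3.18-fold (2.91 to 3.48). It was below ID3 by fold but not by log2 ratio, which has a pseudocount. Of the regulators of Snail stability, 6 of 10 genes had a promoter region, 4 leaned to H3.3 and 2 to neither, with a median of 0.98. GSK3B, the kinase that marks Snail for degradation, was at 8.78-fold (3.65 to 24.2) and the ubiquitin ligase gene FBXO11 at 3.50-fold (1.62 to 9.18). The casein kinase gene CSNK1A1 was at 0.873-fold (0.712 to 1.08) and ATM, a DNA damage kinase, at 1.37-fold (1.12 to 1.67).

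The epithelial targets that these factors are known to repress leaned to H3.3 at 17 of 17 promoters, of 21 genes listed, against 64.6% of all genes. Their folds were 1.99 to 6.96, with a median log2 ratio of 1.43 against 0.91 over all genes. The list was chosen with earlier results of these data known. ST14 and OVOL1 were the highest, and the polarity gene CRB3 at 1.99-fold (1.29 to 3.07) and the adhesion molecule gene EPCAM at 2.16-fold (1.24 to 3.86) the lowest. CDH1, which encodes E-cadherin, had no promoter region. Of its 3 gene body regions on chromosome 16, the one at 4807 bases had an H3.1/H3.2 mean of 1.82, an H3.3 mean of 8.93 and a fold of 4.90 (2.92 to 8.63). The one at 54107 bases had a fold of 3.63 (2.75 to 4.88), and the one at 87107 bases 0.449 (0.161 to 1.22). The 6 repressor promoters and these 17 stood on the same side, which is also the side of most genes, and no expression data were analysed here.

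The miR-200 family forms a loop with ZEB1 and ZEB2, in which each represses the other. Its members share the seeds AAUACUG or AACACUG and lie in 2 clusters, and the mature sequences from RefSeq are shown by cluster with the seed (bases 2 to 8) in capitals.
miR-200b-3p, chromosome 1: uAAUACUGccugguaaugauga
miR-200a-3p, chromosome 1: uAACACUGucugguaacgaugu
miR-429, chromosome 1: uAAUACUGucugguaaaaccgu
miR-200c-3p, chromosome 12: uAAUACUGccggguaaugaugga
miR-141-3p, chromosome 12: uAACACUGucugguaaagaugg
Both seeds occur in both clusters, and the clusters differed in balance. The chromosome 1 cluster lay in 2 regions called in H3.3 alone. The one that holds miR-200b and miR-200a (1163400 to 1167999) had an H3.1/H3.2 mean of 2.27, an H3.3 mean of 11.3 and a fold of 4.97 (3.58 to 6.88), and the one that holds miR-429 (1168200 to 1170399) had means of 1.97 and 9.85 and a fold of 5.01 (3.1 to 8.84). Regions were taken by the distance of their centre, by which MIR200A counts with the second. On chromosome 12, MIR200C and MIR141 share a region of 10 genes (6956800 to 6980599) called in both ChIPs, with means of 10.8 and 13.7 and a fold of 1.27 (1.17 to 1.37). That interval lay below those of chromosome 1, and its length and gene content were unlike theirs. MIR205 had no region assigned.

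**Figure D5:**
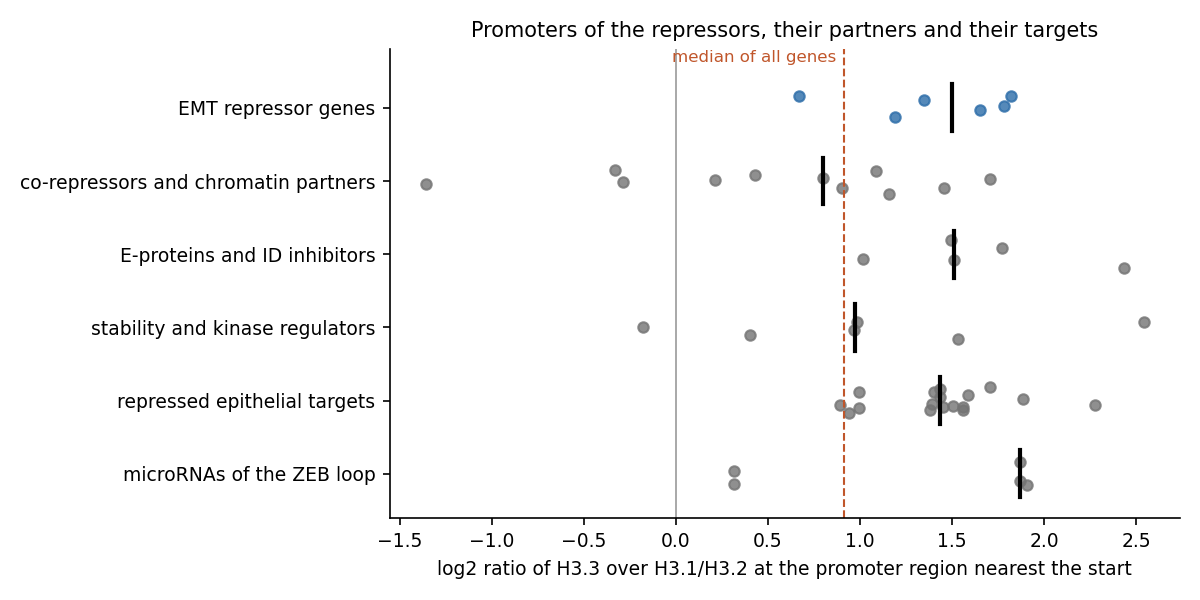
The log2 H3.3-to-H3.1/H3.2 ratio at the promoter region nearest the start for the 6 EMT repressor genes with such a region (blue) and the genes of 5 lists (grey), with list medians (black bars) and the median of all genes (dashed, 0.91). The co-repressors spread from SUZ12 on the H3.1/H3.2 side to EZH2 on the H3.3 side, and the 17 epithelial targets stand on the H3.3 side of 0.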

How the data were processed

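Libraries of 75 nt single-end reads were made from an H3.1/H3.2 ChIP, an H3.3 ChIP and input DNA, 1 each. BWA, SICER and hg38 are tools and the build listed in the submitters' processing notes, without versions or settings. The authors deposited 1 table of regions merged over both ChIPs, with a pileup signal as mean and peak height, and with their log2 ratio of the mean heights, per the file headers, where the columns also carry a tag for a GFP hairpin that no label names. The sources used here do not state how the libraries were scaled or the input used.

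Tags per library are the product of mean height and length over 224, which gives the table's own tag number. The promoter window was recovered from the table and gave the authors' mark in 100% of 36810 regions with 1 gene. Distances are the authors', from a region's centre to the gene's start. Starts and ends are printed as deposited. Spans, sequences and older symbols came from RefSeq (GRCh38.p14). Of 4 regions on chromosome Y none was used. Medians and counts were computed with Python 3.11.15, pandas 2.3.3 and scipy 1.17.1, and intervals were tested on simulated data. All members were described in full, and of each list the 2 highest and the 2 lowest genes and CDH1. Members and lists were chosen with earlier results of these data known.

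Alternatives were peak heights, pseudocounts of 0.1 and 10, a centring on regions called in both ChIPs, a 2-fold threshold, longer, higher or unshared regions, regions near the start and the authors' calls.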

Additional observations from a re-analysis of the deposited data

How the results depend on the processing

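The promoter median of 1.35 and the 10 regions leaning to H3.3 ran from 0.67 (pseudocount 10) to 1.51 and from 4 to 10 over the alternatives, with direction kept. With peak heights 9 promoter and 9 gene body regions leaned to H3.3, and at 2-fold 7 and 9. Over the regions assigned to 1 gene alone, which leaves out shared regions by construction, 4 of 5 promoter and 5 of 14 gene body regions leaned to H3.3, 11 of 20 had a log2 ratio above 0, 10 of 12 list genes leaned to H3.3, and the promoter exceeded the body in 1 of 1 member (3 of 4 over all regions, 2 of 4 over regions of at least 1000 bases and 2 of 3 over those at or above the median summed height). Over regions at or above the median summed height, which keeps fewer regions, 4 of 11 gene body regions and 23 of 31 list genes leaned to H3.3 (35 of 44 over all regions). With 1 value per member, added after the data were seen, 6 of 6 promoters and 3 of 5 bodies leaned to H3.3 and the body median was 1.26, above 0. The body median also stood above 0 for regions of at least 1000 bases (0.45), and without TWIST2 4 of 17 body regions leaned to H3.3. Lengths are as deposited, so the SNAI2 region and both SNAI3 regions next to the start, at 999 bases, fell just below the 1000. For SNAI3 this left the promoter region of 12399 bases, with a log2 ratio of 0.65 against a body median of 1.44. The median log2 ratio of regions called in both was 0.02, and centring on it changed none of these counts. Of the 37 single regions none that leaned changed sign under peak heights, either pseudocount or centring, and the TCF3 region downstream of the start, which leaned to neither, stood at -0.05 with peak heights. Of the 37, 24 moved outside their counting interval with a pseudocount of 10, 11 with peak heights and 1 with centring. The log2 ratios carry a pseudocount and those intervals do not, so these counts do not measure stability alone. The threshold and the authors' calls give no median and the window near the start no body value, so these were not run. No paired analysis was possible because each antibody has 1 library. Regions with few tags, such as those near the SNAI3 start, have wide intervals.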

Other observations

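PRRX2, the paralogue of PRRX1, was not among the genes described above and was picked after its values were seen. It had 16 regions on chromosome 9, 1 at the promoter, 11 in the gene body and 4 beyond, all called in H3.3 alone. That call was given to 56.5% of all promoter regions and 34.0% of all gene body regions. Their folds ran from 2.39 to 5.24, with H3.1/H3.2 means of 2.16 to 3.66 and H3.3 means of 7.33 to 16.4. PRRX1 itself had 2 regions.

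CSNK2A1, a kinase gene of the Snail stability list without a promoter region, was picked in the same way. Its 8 gene body regions on chromosome 20 leaned to H3.1/H3.2, against 46.1% of all gene body regions. Their folds were 0.244 to 0.569, the pattern of the ZEB1 body, and their H3.3 means 1.86 to 3.69. The interval of the region at 41639 bases, 0.273 to 1.23, included 1.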
